A study of Mus musculus with 10 samples.

Results

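The genes of the mitochondrial ribosomal proteins, the nuclear genes whose symbols start with Mrpl or Mrps and a digit, were followed in mouse livers with and without metformin. The members were found by matching the accession of each array probe to the RefSeq mouse gene table and keeping the symbols of that form. This gave 78 genes with 103 probes, out of 21613 genes named on the array and 14541 named genes with a signal that could be tested. Of the 78 genes, 49 carry an Mrpl symbol and 29 an Mrps symbol. RefSeq lists 84 symbols of that form: all 78 protein-coding genes were on the array, and the other 6 are pseudogenes for which no probe was found. All 78 genes passed the filter on dim probes, and the brightest probe of every one was well above background on all 10 arrays.

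Mitochondria carry their own ribosome, which resembles that of bacteria and translates the few proteins that mitochondrial DNA encodes, all of them subunits of the respiratory chain complexes and the ATP synthase. Its RNA comes from mitochondrial DNA, whereas all of its proteins are encoded in the nucleus, made in the cytosol and imported. The large subunit forms the peptide bond and the small subunit decodes the messenger RNA. Some of the proteins have a counterpart in bacteria and others are found only in mitochondrial ribosomes. Hepatocytes are rich in mitochondria, and metformin is known to act on the first complex of the respiratory chain.

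Livers came from 10 male TG221 mice, which carry a miR-221 transgene on the B6D2F2 background. The promoter of the transgene is not given in the sources used here. The 6 mice of the metformin plus CCl4 group received oral metformin at 300 mg/kg each day, begun 3 weeks into the carbon tetrachloride (CCl4) course. The 4 mice of the CCl4 group received CCl4 without metformin. All 10 mice were 4 to 6 weeks old at the start and took CCl4, a liver toxin, by mouth at 20% (v/v) in olive oil, 3 times weekly over 14 weeks. Livers were collected at the 24-week end point. No mouse without CCl4 and no mouse without the transgene was studied, and each sample is labelled both as liver and as hepatocellular carcinoma. The replicates are separate mice, 1 array each.

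Values are log2 spot intensities of Agilent 1-colour arrays minus the 75th percentile of the array, so that 1 unit is a doubling, and levels cannot be compared between probes. Groups were compared with limma over 22193 features, and a gene was called at a Benjamini-Hochberg adjusted p below 0.05. The scaling matters for every direction given here. Spike-in transcripts, RNAs added in equal amount during labelling, stood 1.76 to 2.24 above the 75th percentile in the metformin plus CCl4 mice and 1.32 to 1.80 above it in the CCl4 mice. Scaling to them therefore lowers every log2 fold change by 0.46 and moves the median of all features to -0.36, against 0.10 with the 75th percentile. The metformin plus CCl4 arrays share 1 slide and scan and the CCl4 arrays another, so neither can be told apart from metformin.

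Most mitochondrial ribosomal protein genes were higher in livers of metformin plus CCl4 mice with the 75th percentile as the scale, and none was called higher with the spike-ins as the scale. On the 75th percentile scale 46 of 78 genes rose (59.0%), against 28.0% of all features called higher. On the same scale 5 genes fell (6.41%), against 17.4% of all features called lower, and 27 genes were not called. The median log2 fold change of the 78 genes was 0.31, a 1.24-fold difference, and single genes ran from 0.589-fold to 1.98-fold. All 6 metformin plus CCl4 mice lay above all 4 CCl4 mice in 46 genes (background 21.4%) and below them in 5 genes (background 12.2%). The calls and the separation differed in Mrps25 and Mrps28, apart but not called, and in Mrpl58 and Mrps35, called although the groups overlapped. With the spike-ins as the scale, 0 genes were called higher (background 5.45%; 1 gene, Mrpl49, had a positive change with an unadjusted p below 0.05) and 13 were called lower (background 37.5%), and the median turned to -0.15.

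The distance between these genes and the rest of the array does not depend on a constant per array. The median of the 78 genes lay 0.21 above the median of all features under both scalings, and 60 of the 78 genes were above the median of all features. In the single mice, the median difference of the 78 genes from the CCl4 mean was 0.24 at the lowest, 0.31 at the median and 0.43 at the highest among metformin plus CCl4 mice, against -0.00, 0.02, -0.04 and 0.00 in CCl4 mice 1 to 4. After subtraction of the same quantity over all features, the 6 metformin plus CCl4 mice lay between 0.12 and 0.27. The 4 CCl4 mice lay between -0.029 and 0.018, without overlap. Each gene was set against the mean of these same 4 CCl4 mice, so their values lie near 0 in part by construction. On the spike-in scale the medians of the 78 genes overlapped between groups, at -0.36 to 0.073 in metformin plus CCl4 mice and -0.26 to 0.22 in CCl4 mice. The plot of the family median in each mouse shows both scalings side by side.

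**Figure D1:**
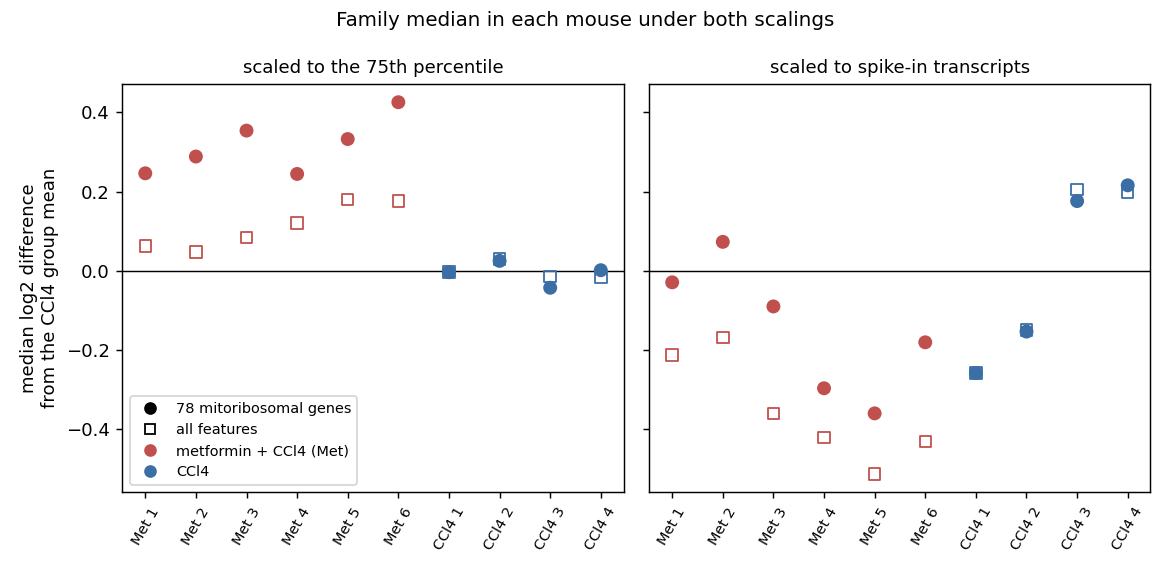
Median log2 difference from the CCl4 group mean in each mouse (vertical axis, log2), over the 78 mitochondrial ribosomal protein genes (filled circles) and over all features (open squares), for metformin plus CCl4 mice (red) and CCl4 mice (blue); left, scaled to the 75th percentile; right, scaled to spike-ins. The 78 genes sat at 0.24 to 0.43 in metformin plus CCl4 mice and -0.043 to 0.025 in CCl4 mice on the left, and the groups overlapped on the right.

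The highest fold change by the probe rule was that of Mrpl49, a large-subunit protein without a bacterial counterpart. Its brightest probe over all arrays measured 2.61 at the lowest, 2.88 at the median and 2.97 at the highest in metformin plus CCl4 mice, against 1.71, 1.75, 1.74 and 2.28 in CCl4 mice 1 to 4. CCl4 mouse 4 stood above the other CCl4 mice but below every metformin plus CCl4 mouse. The log2 fold change was 0.98 ± 0.13 (SE, n = 6 and 4, adjusted p = 0.000231), and 1.12 without CCl4 mouse 4. That probe was the brighter of 2 only in the metformin plus CCl4 group (mean 2.85, against 1.87 in CCl4 mice). The other probe averaged 2.46 in metformin plus CCl4 mice and 2.22 in CCl4 mice, was the brighter one in all 4 CCl4 mice, and gave a log2 fold change of 0.24 ± 0.095 that was not called (adjusted p = 0.0991 among all probes). The place of Mrpl49 at the top, here and in every comparison that follows, thus rests on a probe picked through the group in which it is high.

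Mrps6, the counterpart of bacterial small-subunit protein S6, was next. It measured 2.39, 2.56 and 2.61 (lowest, median, highest) in metformin plus CCl4 mice, against 1.48, 1.74, 1.51 and 1.89 in CCl4 mice. The groups did not overlap, and the log2 fold change was 0.89 ± 0.10 (adjusted p = 0.000116). Mrpl51, a large-subunit protein found only in mitochondrial ribosomes, had the smallest p of the family. It measured 6.04, 6.13 and 6.22 in metformin plus CCl4 mice, against 5.48, 5.42, 5.25 and 5.49 in CCl4 mice. The gap between the groups was wider than the spread within either, with a log2 fold change of 0.73 ± 0.082 (adjusted p = 0.000115).

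Mrpl18 and Mrpl21 are counterparts of bacterial large-subunit proteins L18 and L21. Mrpl18 measured 4.11, 4.25 and 4.39 in metformin plus CCl4 mice, against 3.39, 3.60, 3.48 and 3.75 in CCl4 mice, a log2 fold change of 0.69 ± 0.095 (adjusted p = 0.000299). Mrpl21 measured 4.00, 4.16 and 4.23 in metformin plus CCl4 mice, against 3.46, 3.53, 3.42 and 3.44 in CCl4 mice, a log2 fold change of 0.67 ± 0.078 (adjusted p = 0.000133). Neither gene's groups overlapped. Mrpl47 varied more between treated mice, at 2.90, 3.35 and 3.80 in metformin plus CCl4 mice, against 2.68, 2.66, 2.48 and 2.73 in CCl4 mice, with a log2 fold change of 0.68 ± 0.16 (adjusted p = 0.00533). The 10 genes with the highest fold changes also held Mrps14, Mrpl39, Mrpl24 and Mrpl55, each with a log2 fold change of 0.61, adjusted p between 0.000177 and 0.000839, and no overlap of the groups; with the mean of its 3 probes Mrps14 had 0.18 and was not called (adjusted p = 0.111). All 10 kept a positive log2 fold change with the spike-ins as the scale, at 0.14 to 0.52, but none was called there (lowest adjusted p = 0.0712, for Mrpl49).

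The lowest of the genes called higher were Mrpl48, Mrpl23, Mrps23, Mrps22 and Mrpl11, with log2 fold changes of 0.23, 0.26, 0.27, 0.27 and 0.27 on the 75th percentile scale and -0.24, -0.21, -0.20, -0.19 and -0.19 on the spike-in scale. In all 5 the metformin plus CCl4 mice lay above the CCl4 mice on the 75th percentile scale. Of these calls 4 depended on single mice. Mrpl48 was not called without metformin plus CCl4 mouse 3, 5 or 6 or without any 1 of the CCl4 mice (adjusted p = 0.0609 to 0.0784). Mrpl23 was not called without metformin plus CCl4 mouse 2, 4, 5 or 6 or CCl4 mouse 1, 2 or 3 (0.052 to 0.0823). Mrps23, a small-subunit protein like Mrps22, was not called without metformin plus CCl4 mouse 3 or 5 or CCl4 mouse 4 (0.0593 to 0.0908), and Mrps22 without metformin plus CCl4 mouse 1, 3, 4 or 6 or CCl4 mouse 1, 3 or 4 (0.0535 to 0.109).

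**Figure D2:**
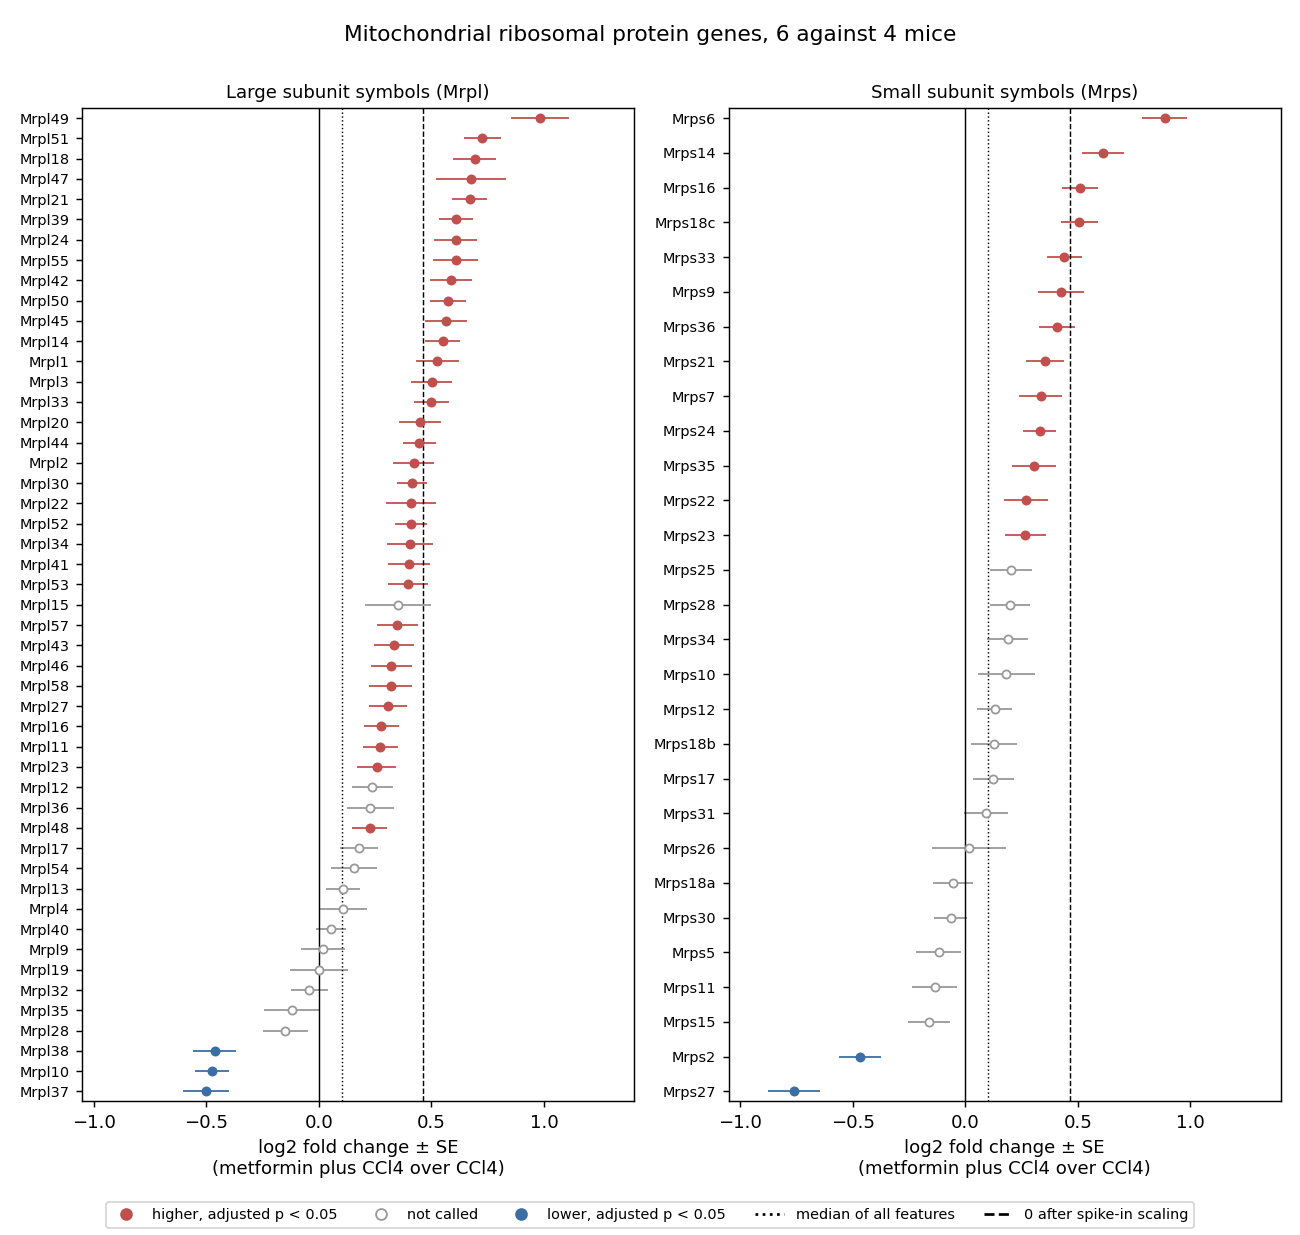
Log2 fold change of each of the 78 genes, metformin plus CCl4 over CCl4, with its standard error (horizontal axis), for Mrpl symbols (left) and Mrps symbols (right), sorted by value; red marks genes called higher, blue genes called lower and open grey circles genes not called. The dotted line is the median of all features at 0.10, and the dashed line at 0.46 is where 0 falls after spike-in scaling: most red points lie left of it or within their error of it, so their direction depends on the scale, and the 5 blue genes lie far to the left of both lines.

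Mrps27, Mrpl37, Mrpl10, Mrps2 and Mrpl38 fell, and they were called lower under both scalings. Mrps27 (chromosome 13), a small-subunit protein with pentatricopeptide repeats, an RNA-binding motif, measured 0.89, 1.01 and 1.35 (lowest, median, highest) in metformin plus CCl4 mice, against 1.74, 2.0, 1.58 and 1.93 in CCl4 mice. Every metformin plus CCl4 mouse lay below every CCl4 mouse, and the level in CCl4 mice was 1.70 times that with metformin (log2 fold change, metformin plus CCl4 over CCl4, -0.76 ± 0.12, adjusted p = 0.000525). On the spike-in scale the log2 fold change was -1.23 (adjusted p = 0.000206).

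Mrpl10 (chromosome 11) is the counterpart of bacterial L10, the base of the ribosomal stalk that recruits translation factors. It measured 2.89, 2.91 and 3.03 in metformin plus CCl4 mice, against 3.30, 3.52, 3.38 and 3.40 in CCl4 mice. The groups were apart and the metformin plus CCl4 mice close together, with a log2 fold change of -0.47 ± 0.075 (adjusted p = 0.00068). Its second probe also fell, by 0.76 ± 0.0995 on the log2 scale.

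Mrps2 (chromosome 2), the counterpart of bacterial S2, measured 2.43, 2.58 and 2.84 in metformin plus CCl4 mice, against 3.1, 3.2, 3.0 and 2.96 in CCl4 mice. Its log2 fold change was -0.47 ± 0.095 (adjusted p = 0.00279), and the second probe of the gene gave -0.97 ± 0.15. The remaining 2 genes, Mrpl37 and Mrpl38, encode large-subunit proteins without a bacterial counterpart. Mrpl37 (chromosome 4) measured 1.14, 1.37 and 1.58 in metformin plus CCl4 mice, against 1.88, 1.87, 1.81 and 1.94 in CCl4 mice, a log2 fold change of -0.50 ± 0.10 (adjusted p = 0.00255). Mrpl38 (chromosome 11) measured 2.90, 3.08 and 3.29 in metformin plus CCl4 mice, against 3.48, 3.65, 3.51 and 3.62 in CCl4 mice, a log2 fold change of -0.46 ± 0.097 (adjusted p = 0.0032). No group overlap was seen in any of the 5 genes. Within slide row 1 alone, with 2 metformin plus CCl4 mice and 4 CCl4 mice, Mrps27 and Mrpl10 were called lower, while Mrpl37, Mrps2 and Mrpl38 had -0.32, -0.34 and -0.29 (adjusted p = 0.0662, 0.0973 and 0.0956).

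**Figure D3:**
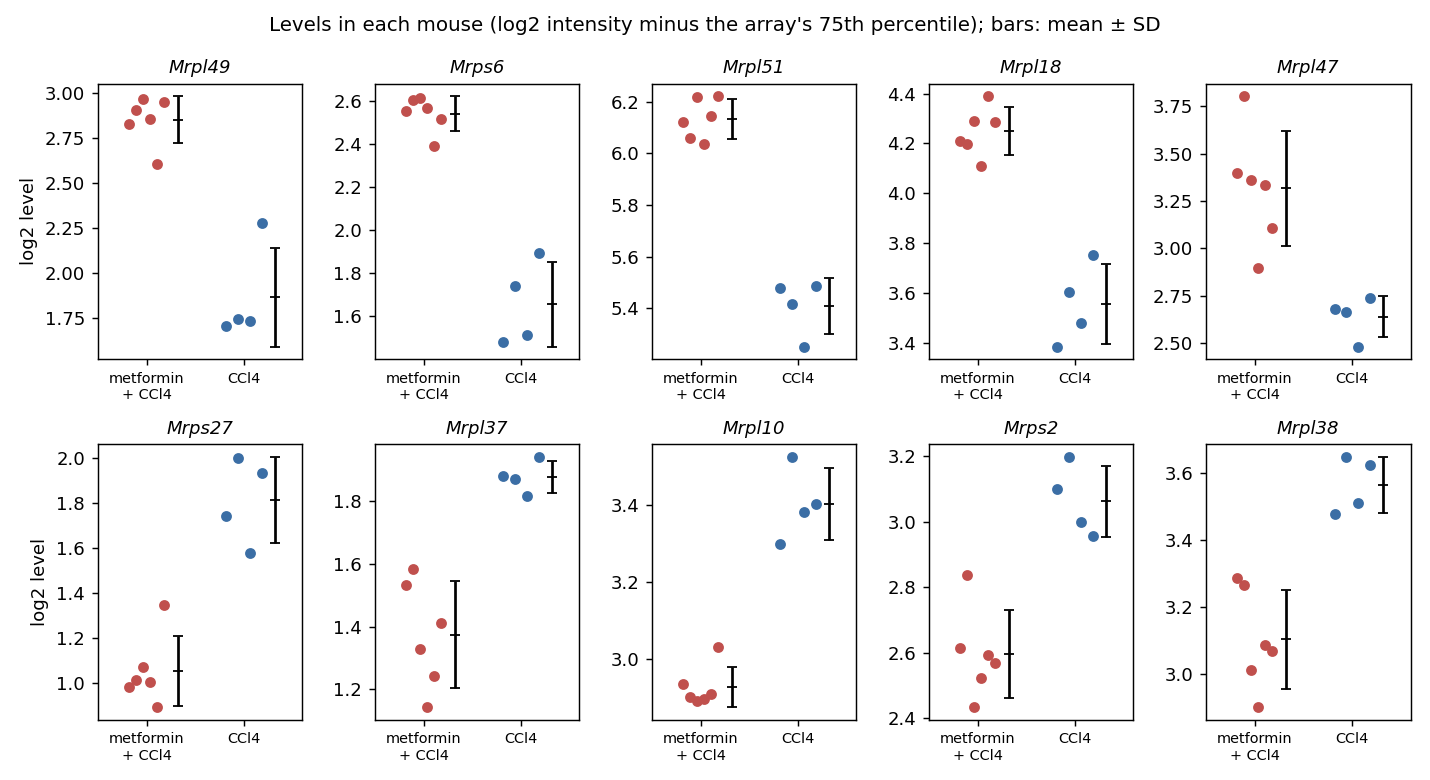
Level of 10 genes in each mouse (vertical axis, log2 intensity minus the 75th percentile of the array, a scale of its own per gene), the 5 with the highest log2 fold change in the upper row and the 5 called lower in the lower row; red points are metformin plus CCl4 mice, blue points CCl4 mice, and bars give the mean and SD. The groups do not overlap in any panel, and CCl4 mouse 4 of Mrpl49 stands apart at 2.28; on the spike-in scale the groups of the upper row overlap.

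Promoters are shown for the 3 genes of lowest p that rose and for the gene of lowest p that fell, to set the letters of the start regions beside the values above. Each is the RefSeq sequence of build GRCm38.p6, 250 bases before to 50 after the gene's start, 5′ to 3′ on the gene's strand, which is the plus strand for all 4. Capitals mark matches to the motifs searched. The motifs, searched on both strands, were GCGCANGCG (NRF1), CCGGAAG (GABP), AAGATGGCG (YY1) and CACGTG (E-box). NRF1, GABP and YY1 are factors known to act on nuclear genes of mitochondrial proteins. The windows are chr6:125191950-125192249 for Mrpl51, chr16:92058086-92058385 for Mrps6, chr19:3282792-3283091 for Mrpl21 and chr13:99344536-99344835 for Mrps27.
Mrpl51: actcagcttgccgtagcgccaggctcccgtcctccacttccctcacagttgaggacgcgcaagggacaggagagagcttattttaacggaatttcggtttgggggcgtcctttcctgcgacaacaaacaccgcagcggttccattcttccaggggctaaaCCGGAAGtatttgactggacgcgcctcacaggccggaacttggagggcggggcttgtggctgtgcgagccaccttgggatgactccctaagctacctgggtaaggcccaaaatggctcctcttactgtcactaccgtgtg
Mrps6: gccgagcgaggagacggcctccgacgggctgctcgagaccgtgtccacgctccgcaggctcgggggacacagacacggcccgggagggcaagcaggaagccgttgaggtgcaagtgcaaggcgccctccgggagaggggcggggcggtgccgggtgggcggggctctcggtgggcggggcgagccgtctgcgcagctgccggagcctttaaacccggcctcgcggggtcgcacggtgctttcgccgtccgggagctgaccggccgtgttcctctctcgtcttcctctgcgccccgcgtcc
Mrpl21: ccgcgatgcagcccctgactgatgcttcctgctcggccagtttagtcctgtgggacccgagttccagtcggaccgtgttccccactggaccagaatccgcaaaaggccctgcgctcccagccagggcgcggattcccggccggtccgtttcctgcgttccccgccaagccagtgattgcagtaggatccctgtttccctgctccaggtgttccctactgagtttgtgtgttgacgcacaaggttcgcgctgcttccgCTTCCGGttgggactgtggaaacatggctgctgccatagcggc
Mrps27: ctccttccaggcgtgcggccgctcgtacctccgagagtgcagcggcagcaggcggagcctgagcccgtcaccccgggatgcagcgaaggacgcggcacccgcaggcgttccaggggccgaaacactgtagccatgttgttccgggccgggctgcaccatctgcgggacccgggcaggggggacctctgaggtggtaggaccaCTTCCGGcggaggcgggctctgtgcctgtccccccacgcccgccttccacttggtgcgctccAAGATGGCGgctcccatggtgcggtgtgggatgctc
The Mrpl51 window holds a GABP match whose first base is at -90 from the start. The Mrpl21 window holds one at 8, past the start, on the opposite strand. The Mrps27 window, of a gene that fell, holds a GABP match at -48 on the opposite strand and a YY1 match at 15. The Mrps6 window holds none of the 4 motifs.

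A promoter sequence was found for 69 of the 78 genes. The GABP motif was in 26 of them (37.7%), against 17.5% of 11574 tested genes with a promoter. The NRF1 motif was in 16 (23.2%), against 13.2% of tested genes. The YY1 motif was in 8 (11.6%), against 3.12%, and the E-box in 5 (7.25%), against 10.9%. Among the 45 genes called higher that have a promoter sequence 20 held the GABP motif (44.4%), against 5 of the 20 genes not called (25.0%) and 1 of the 4 called lower. The YY1 motif ran the other way, in 2 of the 45 called higher (4.44%), 4 of the 20 not called (20.0%) and 2 of the 4 called lower. The NRF1 motif was in 9 (20%), 6 (30%) and 1 of the same 3 sets, and the E-box in 3, 1 and 1. None of these shares was tested against another. A match is a string of letters and no evidence of binding.

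Counts by subunit and origin are set against the same shares of all features, 28.0% higher and 17.4% lower on the 75th percentile scale and 5.45% higher and 37.5% lower on the spike-in scale. Of the 49 Mrpl genes 33 rose (67.3%) and 3 fell (6.12%), with a median log2 fold change of 0.35; on the spike-in scale 0 were called higher and 6 lower (12.2%), with a median of -0.11. Of the 29 Mrps genes 13 rose (44.8%) and 2 fell (6.90%), with a median of 0.20; on the spike-in scale 0 were called higher and 7 lower (24.1%), with a median of -0.26. The median of the Mrpl genes was above that of the Mrps genes in metformin plus CCl4 mice taken singly as well, at 0.27 to 0.46 for Mrpl and 0.15 to 0.31 for Mrps, and the difference between the subunits was not tested.

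Sorted by origin, and beside 28.0% higher and 17.4% lower among all features, 25 of 45 proteins with a bacterial counterpart rose (55.6%) and 2 fell, with a median log2 fold change of 0.31. Of the 28 proteins found only in mitochondrial ribosomes 19 rose (67.9%) and 3 fell, with a median of 0.32. The medians of both classes turned to -0.15 and -0.14 on the spike-in scale. Within the large subunit 15 of 19 mitochondria-specific proteins rose and 17 of 29 with a bacterial counterpart, and within the small subunit these counts were 4 of 9 and 8 of 16. The remaining 5 genes were left unsorted, among them Mrps30 and Mrps18a, whose proteins sit in the large subunit despite their symbols, and Mrps36, now regarded as a component of the 2-oxoglutarate dehydrogenase complex.

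Of the 3 paralogs of Mrps18, 1 was called higher. Mrps18c measured 4.09, 4.20 and 4.33 (lowest, median, highest) in metformin plus CCl4 mice, against 3.83, 3.73, 3.66 and 3.61 in CCl4 mice. It rose, with groups apart and a log2 fold change of 0.51 ± 0.083 (adjusted p = 0.000816; 0.04 and not called on the spike-in scale), and it remained above the family median (0.21, adjusted p = 0.0453). Mrps18b measured 5.67, 5.82 and 6.02 in metformin plus CCl4 mice, against 5.88, 5.72, 5.68 and 5.59 in CCl4 mice. Mrps18a measured 3.69, 3.89 and 4.04 in metformin plus CCl4 mice, against 3.82, 3.98, 3.98 and 3.92 in CCl4 mice. Both overlapped between groups and were not called, with log2 fold changes of 0.13 ± 0.10 for Mrps18b (-0.34 and not called on the spike-in scale) and -0.06 ± 0.089 for Mrps18a (-0.52 and called lower there, adjusted p = 0.047). The differences between paralogs were not tested directly.

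Members with a role beyond the ribosome's core varied as well. Mrpl12, the stalk protein that also binds the mitochondrial RNA polymerase, measured 5.87, 6.05 and 6.15 in metformin plus CCl4 mice, against 5.87, 5.96, 5.64 and 5.71 in CCl4 mice. It was just short of the threshold, with a log2 fold change of 0.24 ± 0.092 (adjusted p = 0.0555), which turned to -0.22 with the spike-ins, and it was called when metformin plus CCl4 mouse 4 (adjusted p = 0.0394) or CCl4 mouse 2 (adjusted p = 0.0391) was left out. Mrpl58, a peptidyl-tRNA hydrolase that frees stalled ribosomes, rose by the test although its groups overlapped, with a log2 fold change of 0.32 ± 0.094 (adjusted p = 0.0185; -0.14 on the spike-in scale); without CCl4 mouse 1 or mouse 3 it was not called (adjusted p = 0.0516 and 0.0515).

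Mrpl41, a large-subunit protein linked to apoptosis in human cells, rose with a log2 fold change of 0.40 ± 0.094 (adjusted p = 0.00595), which turned to -0.06 on the spike-in scale. Mrps36 rose with 0.41 ± 0.081 (adjusted p = 0.00244), which likewise turned to -0.06. Mrps12, the counterpart of bacterial S12 of the decoding centre, had a log2 fold change of 0.13 ± 0.078 (adjusted p = 0.193; -0.33 on the spike-in scale) and was not called. Mrps30 had -0.06 ± 0.072 (adjusted p = 0.494) and was called lower only among the 13 of the spike-in scale, at -0.53 (adjusted p = 0.017). Besides Mrps30 and the 5 genes that fell on both scales, those 13 were Mrpl28, Mrpl32, Mrpl35, Mrps5, Mrps11, Mrps15 and Mrps18a.

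With each array centred on the median of the 78 genes, 15 genes were called above the family (19.2%, background 12.4% of all features). Below it 14 were called (17.9%, background 33.2%). The centring itself spreads the family around 0, with 41 positive and 37 negative changes, and moves the median of all features to -0.19. The near balance of the calls is thus built in. The genes above it were led by Mrpl49 (0.69 ± 0.13, adjusted p = 0.00147), Mrps6 (0.59 ± 0.10, adjusted p = 0.00115) and Mrpl51 (0.43 ± 0.074, adjusted p = 0.00101). Among the rest were Mrpl18, Mrpl21, Mrps14, Mrpl39, Mrpl24, Mrpl55 and Mrps18c. The genes below it were led by Mrps27 (-1.06 ± 0.11, adjusted p = 5.52e-05), Mrpl37 (-0.80), Mrpl10 (-0.77), Mrps2 (-0.76) and Mrpl38 (-0.76), followed by Mrps15, Mrpl28, Mrps11, Mrpl35, Mrps5, Mrps30, Mrps18a, Mrpl32 and Mrpl40. With array row on the slide as a covariate 9 genes were called above the family and 7 below, and within row 1 alone 5 above and 5 below. The share of all features called is not given for these fits, so their counts cannot be read against a background.

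Probes of a gene did not always move alike. Of the 78 genes 55 have 1 probe and 23 have several, with 25 further probes set against the brightest one. The sign was the same in 19 of the 25 and opposite in 6, and 0 were called in opposite directions. The median gap between log2 fold changes was 0.33, and 14 gaps were over 0.3. Counted over all 103 probes, 45 were called higher (background 12.8% of all probes fitted singly) and 7 lower (background 8.70%). That background is not like for like. Of its 55681 probes 29586 passed the filter on dim probes, whereas all member probes but a dim one of Mrpl21 passed it.

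Mrps25 had the widest gap. Its bright probe measured 3.51 to 3.92 in metformin plus CCl4 mice, against 3.44, 3.49, 3.46 and 3.46 in CCl4 mice, and was not called (log2 fold change 0.20 ± 0.10). A dimmer probe of the same transcript measured -1.98 to -0.87 in metformin plus CCl4 mice, against -2.37, -3.25, -3.40 and -3.18 in CCl4 mice, and was called higher (1.66 ± 0.28, adjusted p = 0.00208 among all probes). Of genes called higher by the bright probe, Mrps14 had 2 further probes at 0.03 and -0.11, Mrpl50 had one at -0.03, Mrps7 one at -0.17, Mrpl39 one at 0.15, Mrpl22 one at 0.08, Mrpl43 one at 0.17, Mrpl21 one at 0.19 that was not well above background on any array, Mrps23 one at -0.085 and Mrpl49 one at 0.24, none of them called. Called higher by both probes were Mrpl47, with a second probe at 0.91, Mrpl41 (0.69), Mrps36 (0.47), Mrpl27 (0.46) and Mrps33 (0.45). The second probe of Mrpl41 overlapped between groups. The lower genes Mrpl10 and Mrps2 were called lower by both probes.

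**Figure D4:**
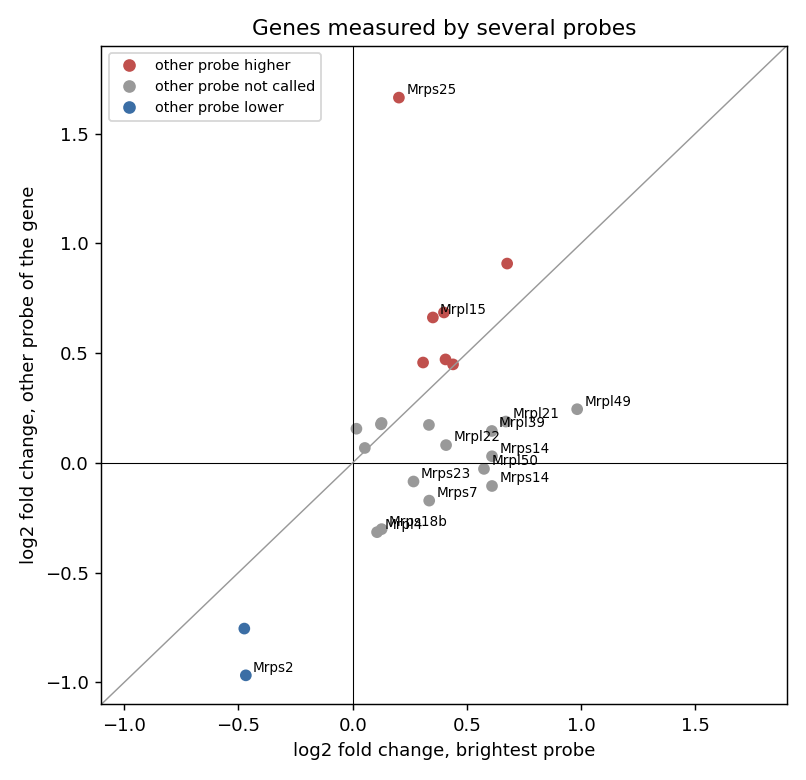
Log2 fold change (metformin plus CCl4 over CCl4, scaled to the 75th percentile) of the brightest probe of a gene (horizontal axis) against that of each other probe of the gene (vertical axis), for the 23 genes with several probes; colour marks the call of the other probe, and the grey line is equality. The 6 points below 0 with a positive horizontal value are the probes of opposite sign, and Mrps25 stands off at 0.20 and 1.66; spike-in scaling would move every point down and left by 0.46.

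The authors' deposited table lists 9 probes of the family, all with quantile-normalized log2 values per mouse, of which 6 were higher and 3 lower in metformin plus CCl4 mice. In the authors' deposited table the difference of group means was 0.90 for Mrpl49, 0.81 for Mrps6 and 0.59 for Mrpl18 on the same probes as above. It was -0.81 for Mrps27 in the authors' deposited table, and the probes listed there for Mrps2 and Mrpl10, the dimmer ones, gave -1.01 and -0.83. For Mrps25, Mrpl47 and Mrpl15 the authors' deposited table holds the dimmer probe too, with differences of 1.66, 0.88 and 0.63. That table was limited by its authors to probes past a fold change of 1.5 and a false discovery rate of 0.01, so its 9 probes say nothing about the other members.

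A pair of members shares its start region: Mrpl46, on the minus strand, and Mrps11, on the plus strand, have overlapping promoter windows. Mrpl46 rose (log2 fold change 0.32 ± 0.091, adjusted p = 0.0149) while Mrps11 had -0.14 ± 0.099 (adjusted p = 0.282). The difference between the 2 probes within an array, whose size has no meaning but whose change is free of array scaling, was 1.30 ± 0.079 in metformin plus CCl4 mice and 0.843 ± 0.11 in CCl4 mice (SD, n = 6 and 4). It was thus 0.46 larger with metformin. The pair was noticed in these data, so no p-value is given for that change. The other members with a tested gene close by on the opposite strand had partners as different as Ndufb5 beside Mrpl47 (0.37), Fau beside Mrpl49 (0.37) and Ska3 beside Mrpl57 (-1.94).

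Other genes of mitochondrial protein synthesis are summarised in the plot of calls by gene list, to be read against 28.0% of all features called higher and 17.4% called lower. Proteins of the mitochondrial ribosome that carry other names numbered 5, of which Chchd1 (0.32 ± 0.073, adjusted p = 0.00561; -0.15 with spike-ins) and Aurkaip1 (0.37 ± 0.10, adjusted p = 0.0148; -0.09 with spike-ins) rose. Dap3 (0.18; -0.29 with spike-ins), Ptcd3 (0.15; -0.31 with spike-ins) and Gadd45gip1 (-0.12) were not called; with spike-ins Gadd45gip1 was called lower (-0.59, adjusted p = 0.00976). Of 26 assembly and rRNA modification factors tested 13 rose and 3 fell. With spike-ins 1 was called higher and 7 lower (26.9%), beside 5.45% and 37.5% of all features. The rise was largest for Mrm1, an rRNA methyltransferase (1.29 ± 0.13, adjusted p = 8.11e-05), the 1 also called higher with spike-ins (0.82, adjusted p = 0.00384). Ybey (0.96), Ngrn (0.94) and Mterf4 (0.93) followed. With spike-ins they had 0.49, 0.48 and 0.46 and were not called. Rbfa, Rcc1l and Mpv17l2 fell, by 0.42, 0.45 and 0.46 on the log2 scale.

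Of 16 translation factors 9 rose and 4 fell (25.0%), beside 28.0% and 17.4% of all features. On the spike-in scale 0 were called higher and 4 lower (25.0%), beside 5.45% and 37.5% of all features. Mtfmt, which formylates the initiator methionyl-tRNA, rose (0.81 ± 0.14, adjusted p = 0.0012), as did the elongation factor Gfm1 (0.48 ± 0.086, adjusted p = 0.00141). Neither was called with spike-ins, where Mtfmt had 0.35 and Gfm1 0.01. The elongation factor Tufm fell (-0.46 ± 0.087, adjusted p = 0.00199; -0.92 with spike-ins), as did its exchange factor Tsfm (-0.41), the recycling factor Mrrf (-0.28) and Guf1 (-0.58). Lrpprc, which stabilises mitochondrial messenger RNAs, rose by 0.40 on the 75th percentile scale and had -0.06 with spike-ins. Aminoacyl-tRNA synthetases and amidotransferase subunits of mitochondria went both ways on the 75th percentile scale, with 7 of 20 higher and 7 lower (35.0% each). The higher share was near the 28.0% of all features. With spike-ins 0 were called higher and 12 lower (60%), beside 5.45% and 37.5% of all features. Hars2 (0.91), Pars2 (0.83) and Rars2 (0.79) rose but were not called with spike-ins. Cars2 fell (-0.87 ± 0.11, adjusted p = 0.000229), also with spike-ins (-1.33, adjusted p = 0.000202).

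Of 18 genes of mitochondrial DNA upkeep and transcription 9 rose (50%, against 28.0% of all features) and 1, Prorp, fell (-0.63). Mterf1a and Mterf1b, near-identical copies that their probes may not tell apart, had 1.25 and 1.24, and Polg2, the accessory subunit of the DNA polymerase, 1.15 ± 0.12 (adjusted p = 7.01e-05); these 3 were called higher with spike-ins as well. The single-strand binding protein Ssbp1 rose (0.67) but was not called with spike-ins. On that scale 3 of the 18 were called higher and 3 lower (16.7% each), beside 5.45% and 37.5% of all features. The RNA polymerase Polrmt rose (0.34; -0.12 with spike-ins), and Tfam was not called (0.20; -0.27 with spike-ins). Among 9 regulators Esrra rose (1.05 ± 0.15, adjusted p = 0.000341), also with spike-ins (0.58, adjusted p = 0.0429). Yy1 (0.55) and Gabpa (0.50) rose too, but neither was called with spike-ins. On that scale 1 of the 9 was called higher and 5 lower (55.6%), beside 5.45% and 37.5% of all features. Gabpb1, the partner of Gabpa in the GABP complex, fell (-1.37 ± 0.12, adjusted p = 4.31e-05), as did Nrf1 (-0.47, adjusted p = 0.0269), whose groups overlapped. Nrf1 was not called without metformin plus CCl4 mouse 3 or 6 or CCl4 mouse 1, 2 or 3 (adjusted p = 0.0505 to 0.0802). The coactivator Ppargc1a was not called (-0.54, adjusted p = 0.0952), but it was called lower on the spike-in scale (-1.01, adjusted p = 0.00352) and without metformin plus CCl4 mouse 5 (-0.72, adjusted p = 0.00854).

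Import factors and chaperones of mitochondria held 8 of 17 genes called higher (47.1%, against 28.0% of all features) and 1 lower. Among the higher were the channels Vdac1 (0.47), Vdac2 (0.55) and Vdac3 (0.42) and the chaperonin subunit Hspe1 (0.46). With spike-ins 0 of the 17 were called higher and 4 lower (23.5%), beside 5.45% and 37.5% of all features. Vdac3 had -0.04 and Hspe1 -0.01 on that scale. For comparison, 55 of 81 cytosolic ribosomal protein genes rose (67.9%) and 0 fell (0 lower by limma at the adjusted threshold, against 5 of 81 on the spike-in scale), with a median log2 fold change of 0.31 that turned to -0.16 with spike-ins. Of 46 Nduf genes of respiratory complex I, 23 rose (50%) and 0 fell, with a median of 0.26 that turned to -0.20. The median of the mitochondrial ribosomal genes was thus as far above that of all features (0.21) as that of the cytosolic ones (0.21), and no difference between the families was tested.

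**Figure D5:**
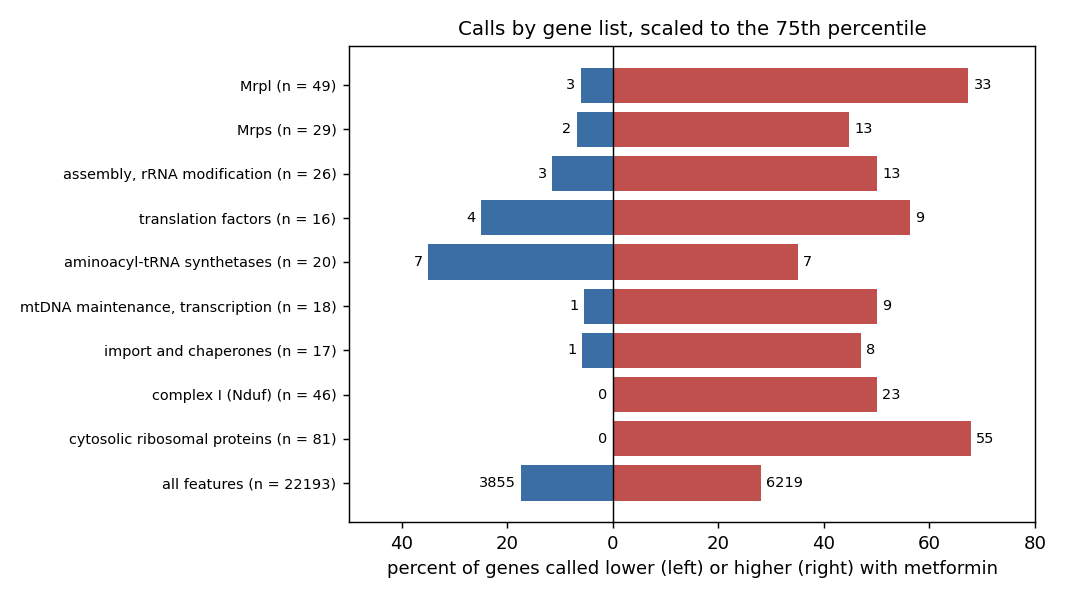
Share of the genes of each list (percent, horizontal axis; number tested in brackets) called higher (red, right of 0) or lower (blue, left of 0) in metformin plus CCl4 livers against CCl4 livers at adjusted p below 0.05, scaled to the 75th percentile; numbers at the bars are genes. Mrpl genes (33 of 49) and cytosolic ribosomal protein genes (55 of 81) had the largest shares called higher of the lists drawn, and with the spike-ins as the scale 0 genes of either list were.

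Markers of liver cell types are set beside the 17.4% of all features called lower (37.5% on the spike-in scale). Markers were called lower for macrophages in 4 of 12 genes, neutrophils in 4 of 7, endothelial cells in 2 of 8, stellate cells and myofibroblasts in 5 of 8, bile ducts in 3 of 6 (1 was higher) and hepatocytes in 3 of 11, and 0 of 6 lymphocyte markers were called. The shares were 25.0% for endothelial cells and 27.3% for hepatocytes, and those for neutrophils (57.1%) and stellate cells (62.5%) were the highest of these 7 lists. On the spike-in scale 9 of 11 hepatocyte, 5 of 8 endothelial, 8 of 8 stellate and 7 of 12 macrophage markers were called lower. The same held for 5 of 7 neutrophil, 4 of 6 bile duct and 2 of 6 lymphocyte markers, all beside 37.5% of all features. The mean level of the stellate list was -0.81 to -0.055 in metformin plus CCl4 mice, against 0.013 to 0.74 in CCl4 mice. That of the macrophage list was 1.68 to 2.47 in metformin plus CCl4 mice, against 2.26 to 2.59 in CCl4 mice. That of the neutrophil list was -0.98 to 1.06 in metformin plus CCl4 mice, against 0.37 to 1.52 in CCl4 mice. The stellate ranges did not overlap, whereas those of macrophages and neutrophils did. The endothelial list was at 0.44 to 1.20 in metformin plus CCl4 mice and 1.14 to 1.52 in CCl4 mice. The bile duct list was at -2.56 to -1.60 in metformin plus CCl4 mice and -1.73 to -1.03 in CCl4 mice, and the lymphocyte list at -0.86 to 0.35 in metformin plus CCl4 mice and -0.51 to -0.10 in CCl4 mice. The hepatocyte list, high in every mouse, was at 8.70 to 8.98 in metformin plus CCl4 mice and 8.97 to 9.23 in CCl4 mice. Their part in the changes of the mitochondrial ribosomal genes was not tested, and in whole livers a different share of cells and a different amount of RNA per cell cannot be told apart.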

How the data were processed

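Liver RNA of 10 mice was hybridised to Agilent 1-colour mouse arrays, 1 per mouse. The deposited scanner files hold spot intensity on a linear scale from Agilent Feature Extraction 10.7.3.1, background-subtracted, per the file headers. The authors also deposited a table of quantile-normalized log2 values for 4595 probes, limited to a false discovery rate of 0.01 and a fold change of 1.5 per the file's first line; its columns followed the log2 intensities of the same arrays with Pearson r of 0.9997 to 1.00 across its probes. Scale and direction are thus known, and any centring beyond quantile normalization is unknown.

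From the log2 processed intensity, the 75th percentile of the non-control spots of each array was subtracted. Irregular spots (135 to 179 per array) were left out, and no spot was saturated (0 per array). Between 51.2% and 54.9% of probes were well above background, and the 75th percentile was an intensity of 237 to 363. A probe was kept if well above background on 75% or more of the arrays in either group (29586 of 55681). Accessions gave a RefSeq symbol (GRCm38.p6) for 28664 probes. A gene is represented by its brightest probe over all arrays, and the 22193 features were fitted with limma 3.58.1 (R 4.3.3; lmFit and eBayes; two-sided p, adjusted over all features after Benjamini and Hochberg); probes were also fitted singly. Spike-in scaling used 10 spike-in probes. The members and all gene lists were chosen with earlier results of these data known, and the family-centred fit was added after the direction was seen to depend on the scaling. Mouse numbers are shared by 4 mice of each group; residuals of same-numbered mice correlated at -0.14, -0.12, 0.086 and -0.0032, so the numbers do not pair the mice.

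Named members are the 10 highest and 10 lowest fold changes among called genes with groups apart, all called lower, and Mrpl12, Mrpl41, Mrpl58, Mrps12, Mrps18a, Mrps18b, Mrps18c, Mrps30 and Mrps36; per other list, the 4 called genes of lowest p and a few fixed regulators. Other genes were named after their values were seen: those of the family-centred and spike-in calls, the probe pairs, the Mrpl46 and Mrps11 pair with the neighbours beside it, and Rbfa, Rcc1l, Mpv17l2, Tsfm, Mrrf, Guf1 and Prorp. Alternatives were other background corrections, scalings, filters, probe rules, array weights, slide row, a replicate block and leaving out each mouse. Precision is limited by the 6 and 4 arrays. The fit was tested on simulated data with known changes.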

Additional observations from a re-analysis of the deposited data

Results flagged for a closer look

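Single mice stood apart within their group in 7 of 124 groups of values examined, by Dixon's gap test, which chance exceeds in about 1 in 20 groups; 4 of the 7 concern CCl4 mouse 4. Mrpl49 was highest in CCl4 mouse 4, at 2.28, with the other CCl4 mice at 1.71 to 1.75. Mrps23 was lowest in CCl4 mouse 4, at 3.63, with the next at 3.88. Rars2 was highest in CCl4 mouse 4, at 2.01, with the next at 1.56, and so was Lrpprc, at 5.54, with the next at 5.38. Mrpl10 was highest in metformin plus CCl4 mouse 6, at 3.03, with the next at 2.93. Vdac1 was lowest in metformin plus CCl4 mouse 1, at 6.24, with the next at 6.45. Yy1 was highest in metformin plus CCl4 mouse 5, at 2.25, with the next at 2.11.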

How the results depend on the processing

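Scaling decided the direction of the family. With spike-ins 0 genes were called higher (0 Mrpl, 0 Mrps) and 13 lower, against 46 and 5 with the 75th percentile. The median log2 fold change was -0.15 in place of 0.31 (0.25 with median scaling, 0.20 after quantile normalization). After quantile normalization 33 genes were called higher (24 Mrpl, 9 Mrps), 42.3% against 23.9% of all features. In that setting 5 were called lower (6.41%, against 20.2%), and the family median lay 0.17 above that of all features. Within slide row 1 alone, 26 genes were called higher (20 Mrpl, 6 Mrps) and 2 lower, where fewer mice enter. With the mouse number as a replicate block over 4 mice of each group, 26 were called higher (20 Mrpl, 6 Mrps); the numbers do not pair the mice. Relative to the family median, calls above it numbered 25 with the mean of a gene's probes, 26 with every probe on its own, 5 in row 1 alone, 9 with row as a covariate and 3 under the replicate block, against 15; calls below it numbered 5, 7 and 5 under the last 3 and 9 with every probe on its own, against 14. Leaving out 1 mouse gave 41 to 45 genes higher, 5 lower, a median of 0.29 to 0.33, 30 to 33 Mrpl and 10 to 13 Mrps genes higher, and 11 to 14 above and 13 to 16 below the family median. The share of all features called is not given for row 1, row as a covariate, the replicate block or a mouse left out. Nor is it given for the family-centred fits of probe means or single probes. These counts thus cannot be read against a background.

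With spike-ins the sign turned for Mrpl48 (-0.24), Mrpl23 (-0.21), Mrps23 (-0.20), Mrps22 (-0.19), Mrpl11 (-0.19), Mrpl12 (-0.22), Mrpl41 (-0.063), Mrpl58 (-0.14), Mrps12 (-0.33), Mrps18b (-0.34), Mrps36 (-0.056), Hspe1 (-0.0061), Vdac3 (-0.039), Lrpprc (-0.062), Chchd1 (-0.15), Aurkaip1 (-0.093), Dap3 (-0.29), Ptcd3 (-0.31), Polrmt (-0.12) and Tfam (-0.27). It also turned with the mean of a gene's probes for Dap3 (-0.0021), Gadd45gip1 (0.19) and Tfam (-0.14), with normexp for Mrps12 (-0.0046), with quantile normalization for Mrps18b (-0.016), under the replicate block for Mrps18a (0.012), and in row 1 alone and with row as a covariate for Mrps18a (0.054) and Mrps18b (-0.017); beyond the subtracted constants the cause was not tested. Over the named members, 527 of their values kept direction and side of the threshold, 91 fell short of it, 6 passed it and 18 turned. The 5 genes that fell kept their sign under every alternative run.

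Slide and metformin cannot be told apart, and the direction of the family depends on which scale is used. No mouse without CCl4 was studied, and log2 fold changes of probes of 1 gene differed by 0.33 in the median, beside a family median of 0.31.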
